A study of Homo sapiens with 29 samples.

Results

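The 43 genes described here encode proteins of the insulin secretory granule and of the machinery that carries, docks, primes and fuses it, measured in a human β-cell line, EndoC-βH1. Each of the 43 matched 1 entry of the count table, and 40 had a mean of at least 1 CPM (counts scaled to the library total) over the 29 libraries, the minimum for membership, of 66025 entries in the table and 16660 that met the same minimum. The 3 genes below it were SYTL4, MYRIP and CADPS2, with means of 0.044, 0.03 and 0.546 CPM. The lowest genes above it were RAB37 and RAB3A, with 8.67 and 10.9 CPM. The 40 genes fall into 10 granins and granule membrane proteins, 10 SNAREs and their partners, 5 synaptotagmins, 7 RAB proteins and effectors and 8 priming and active zone proteins.

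The study grew EndoC-βH1 cells for 10 days in medium that HEK293 cells, a human embryonic kidney line, had conditioned for 3 hours. The HEK293 cells stably overexpressed mutant CEL (MUT, 10 libraries), wild-type CEL (WT, 10 libraries) or an empty vector (EV, 9 libraries), and the medium was filtered, set to equal protein and replaced each day. CEL encodes carboxyl ester lipase, an acinar digestive enzyme that is mutated in the diabetes MODY8, and the comparisons ask how β-cell transcripts differ between the media. Batch 1 held 4 MUT, 4 WT and 3 EV libraries, and batches 2 and 3 held 3 of each. All 3 groups share the HEK293-conditioned medium, so the EV group is not an untreated one, and the source of CEL is a kidney line, not the acinar cell. No source used here names the mutation, and CEL in the HEK293 cells was not analysed here. The labels do not say whether libraries of a batch and medium were separate cultures, so the p-values reflect library-to-library spread that may be technical. Each medium had 1 set of libraries in a batch, so a response to a medium and a difference between sets cannot be told apart.

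Each library held 28.7 to 40.2 M estimated counts in MUT, 26.2 to 38.3 M in WT and 27.0 to 39.5 M in EV libraries. Of 20 β-cell markers, 20 had a mean of at least 1 CPM. The acinar enzyme genes AMY2A and PNLIP were at 0 in every library. Of 12 HEK293 markers, 4 had a mean of at least 1 CPM, with sums of 29.8 to 38.8, 27.8 to 41.5 and 27.7 to 42.2 CPM in MUT, WT and EV libraries. In bulk RNA fewer cells of a type and less RNA per cell cannot be told apart. The share of counts from mitochondrial genes in batch 2 was 5.07% ± 0.299 in MUT, 4.01% ± 0.0337 in WT and 5.03% ± 0.227 in EV libraries (SD, n = 3 each), and its part in the batch 2 results was not tested.

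Insulin leaves the β-cell by regulated exocytosis. Granins and other cargo condense in the granule core, RAB proteins and their effectors carry granules to the plasma membrane, and priming factors of the UNC13 and CADPS families help vesicle and target SNAREs to pair. Complexins hold the assembled SNARE complex and synaptotagmins sense the calcium that enters when the cell is depolarised, which starts fusion. Much of this machinery is shared with neurons.

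Per kilobase of transcript, the members covered a wide range of levels. CHGA, the granin chromogranin A, averaged 4350 CPM per kb over the 29 libraries, far above PTPRN at 294 CPM per kb and CHGB at 276 CPM per kb, whose library ranges overlap. STX1A, the plasma membrane syntaxin, was the highest SNARE at 198 CPM per kb, CADPS, a calcium-dependent activator of priming, the highest priming factor at 72.7 CPM per kb, and SYT7, a calcium sensor, the highest synaptotagmin at 49.6 CPM per kb. The lowest 2 members were PCLO, a scaffold of the active zone, at 3.65 CPM per kb and RAB37, a RAB GTPase, at 2.28 CPM per kb. The plot of levels by length shows that most neighbours in this order overlap across libraries. NSF has 1 other entry with the same values in the table, so its level is uncertain, and PTPRN, TSPAN7, VAMP2, NAPA, SYT7, RAB3D and BAIAP3 overlap other annotated genes, whose reads may not be fully separated from theirs.

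**Figure D1:**
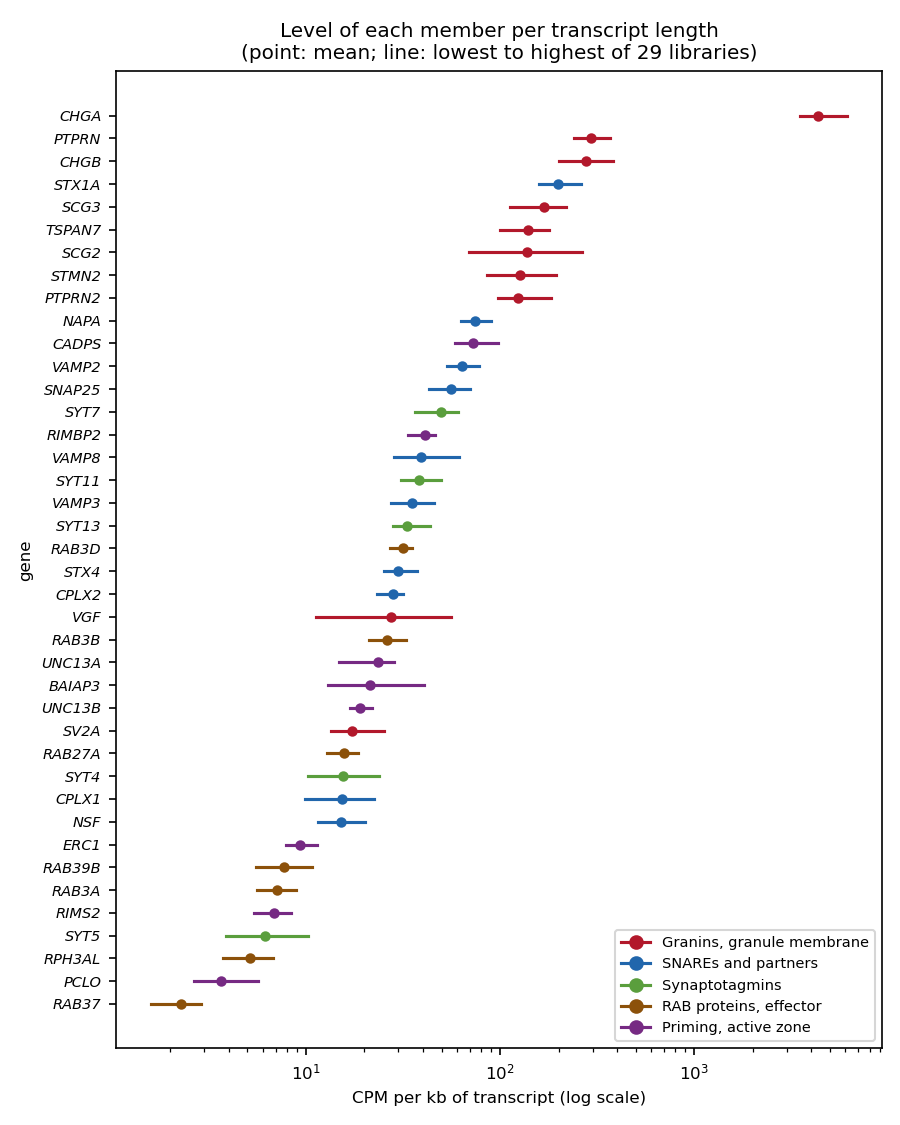
Mean level of each of the 40 genes in CPM per kb of transcript (log scale), with a line from the lowest to the highest of the 29 libraries and colours for the sub-groups. CHGA stands apart at 4350 CPM per kb, and RAB37 is lowest at 2.28 CPM per kb.

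Over the 3 batches together, 8 of the 40 genes were higher in MUT than in EV libraries and 1 was lower. The higher ones were the granin SCG2, the granule and vesicle membrane proteins TSPAN7 and SV2A, the microtubule regulator STMN2, the synaptotagmins SYT11 and SYT13, RAB39B and CADPS, and the lower one was the vesicle SNARE VAMP8. The changes were small, from 0.14 to 0.36 on the log2 scale for those that rose and -0.21 for VAMP8. The test was edgeR's quasi-likelihood test with batch in the model and a Benjamini-Hochberg adjusted p under 0.05 over 21259 genes. Of all genes 5.2% passed, 2.95% higher and 2.25% lower. Only 16660 entries reached a mean of 1 CPM, so the 21259 include genes at lower levels than every member. Shares of all genes in this report are not matched to the members for level. By sub-group, 4 of 10 granins and granule membrane genes, 2 of 5 synaptotagmins, 1 of 7 RAB genes and 1 of 8 priming genes rose, and 1 of 10 SNARE genes fell. The median log2 difference of the 40 genes was 0.055, against 0.0 for all genes. With batch 2 left out 0 of the 40 passed in edgeR, with 16 at an unadjusted p under 0.05. The share of all genes in this and the other alternative fits is not given here. Their counts of members therefore cannot be set beside it. Leaving out 1 batch 2 library left 2 members without MUT library 1, EV library 2 or EV library 3, and 3 members without MUT library 2, MUT library 3 or EV library 1.

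Between MUT and WT libraries 1 of the 40 passed over all batches, STMN2, which was higher in MUT, where 0.884% of all genes passed and 0.522% were higher. Between WT and EV libraries 2 passed, RAB39B and BAIAP3, both higher in WT, where 0.315% of all genes passed and 0.169% were higher. The 3 comparisons share libraries in pairs, so their lists are not independent of each other. When each set of libraries was added up to a single profile, edgeR called 0 of the 40 in each comparison. At an unadjusted p under 0.05 there were then 6 members in MUT vs EV, 0 in MUT vs WT and 2 in WT vs EV, given without a share of all genes.

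The batches gave very different pictures. Fitted alone, batch 2 called 29 members in MUT vs EV, 19 higher and 10 lower, where 47.8% of all genes passed (24.1% higher, 23.8% lower). It called 19 members in MUT vs WT, 5 higher and 14 lower, where 33.1% of all genes passed (16.8% higher, 16.4% lower). It called 30 members in WT vs EV, 27 higher and 3 lower, where 38.9% of all genes passed (19.6% higher, 19.3% lower). The 27 are 67.5% of the members. Batch 1 alone called 1 member for MUT vs EV, the gene SYT11 with a higher level in MUT, where 1.4% of all genes passed and 0.497% were higher. DESeq2 called 9 members there, as did edgeR without MUT library 4. It called 1 member for MUT vs WT, BAIAP3 with a lower level in MUT, where 0.277% of all genes passed and 0.22% were lower, and DESeq2 called 7, as did edgeR without MUT library 4. In WT vs EV batch 1 called 0 members in edgeR and 1 in DESeq2, where 0.0143% of all genes passed in edgeR. At an unadjusted p under 0.05 there were 8 members and 9.75% of all genes. Batch 3 alone called 1 member for MUT vs WT, VAMP8 with a higher level in MUT, where 1.22% of all genes passed and 0.868% were higher. DESeq2 called 5 members there, edgeR with no filter 3 and edgeR without WT library 3 called 4. In MUT vs EV batch 3 called 0 members in edgeR and 0 in DESeq2, where 0.049% of all genes passed in edgeR, with 7 members and 15% of all genes at an unadjusted p under 0.05. In WT vs EV it called 0 members in edgeR and 0 in DESeq2, where 0.00981% of all genes passed in edgeR, with 3 members and 5.35% of all genes at an unadjusted p under 0.05.

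**Figure D2:**
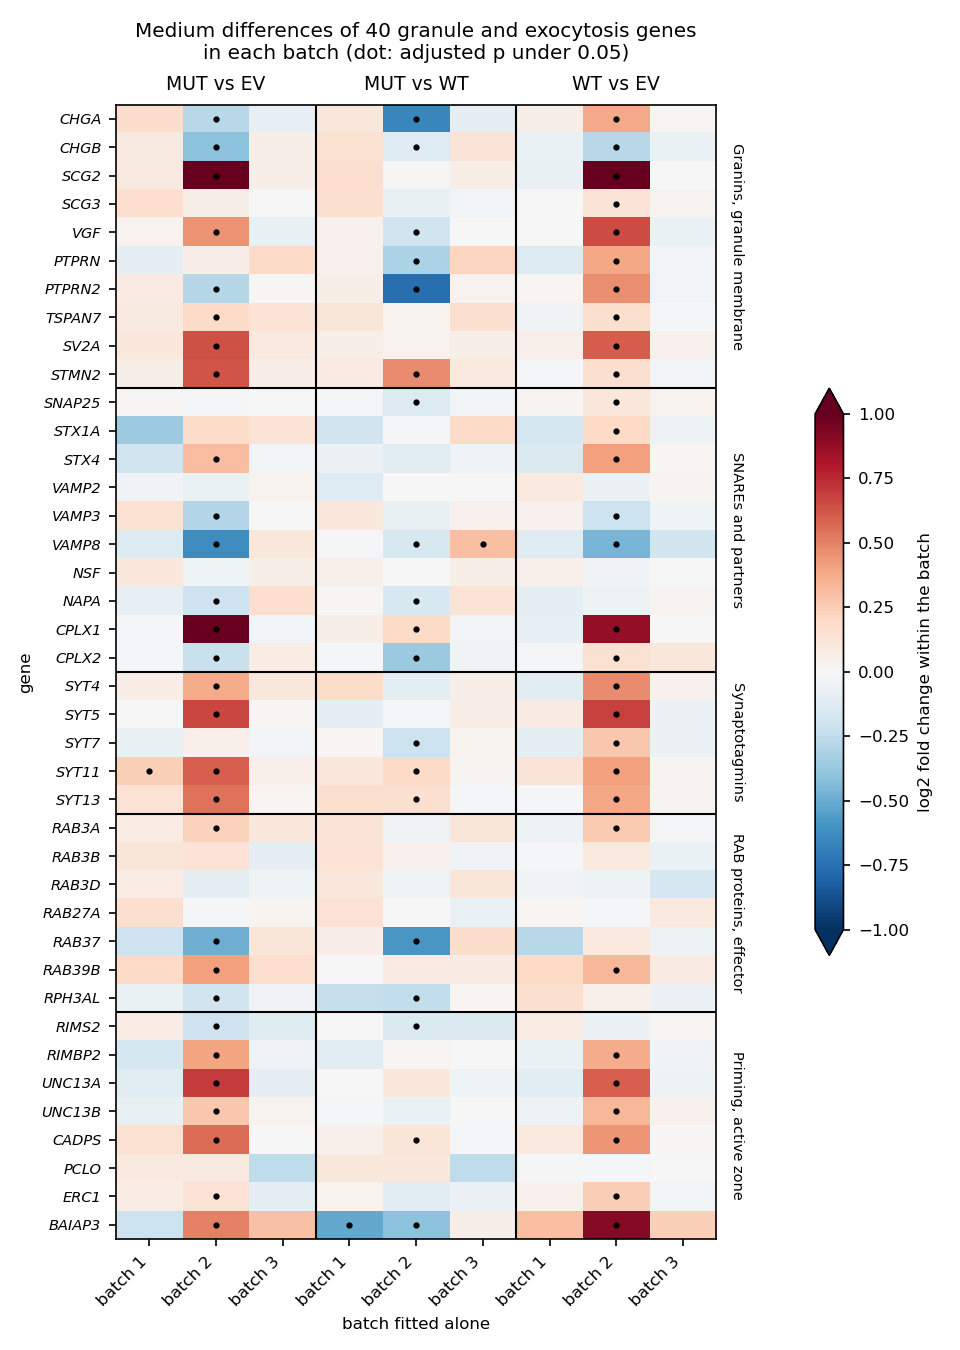
Log2 fold change of each of the 40 genes (rows) between 2 media within each batch fitted alone (columns), in red where the first medium is higher and in blue where it is lower, with a dot where the adjusted p is under 0.05. Dots fill the batch 2 columns, with 29, 19 and 30 members, and the batch 1 and batch 3 columns hold at most 1 each.

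The edgeR F test of a medium difference that varied between batches passed for 26 members in MUT vs EV, where 44% of all genes passed. It passed for 15 members in MUT vs WT, where 28.4% did, and for 24 members in WT vs EV, where 24.1% did. For WT vs EV these were 9 of 10 granin and granule membrane genes, 5 of 5 synaptotagmins, 6 of 8 priming genes, 4 of 10 SNARE genes and 0 of 7 RAB genes, 2 of which had an unadjusted p under 0.05. DESeq2 gave 27, 19 and 26 members in the same test. The heat map of fold changes by batch shows the same split by eye, with strong colours in the batch 2 columns. The bar plot of shares sets the members beside all genes.

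**Figure D3:**
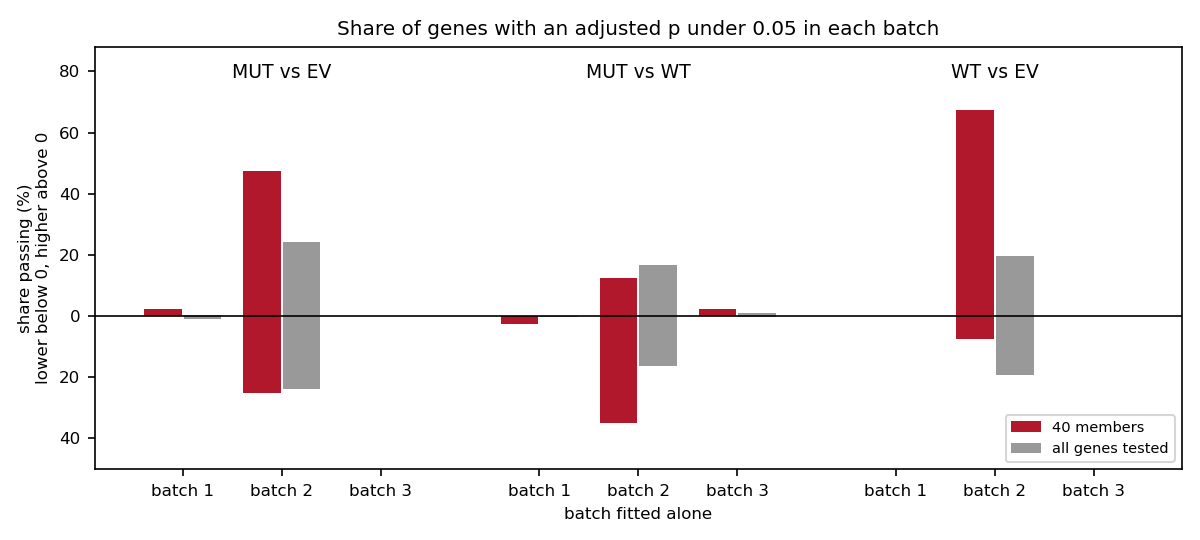
Share of the 40 members (red) and of all genes tested (grey) with an adjusted p under 0.05 in each batch fitted alone, drawn above 0 for genes higher in the first medium and below 0 for lower ones. For WT vs EV in batch 2 the share of members that were higher was 67.5%, against 19.6% of all genes. The genes tested include ones at lower levels than the members and were not matched for level.

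In the same direction in all 3 batches, without regard to a test, were 10 members higher and 1 lower for MUT vs EV, where 8.69% and 9.76% of all genes were. Between MUT and WT 5 members were higher and 5 lower, against 9.99% and 10.8% of all genes, and between WT and EV 8 were higher and 4 lower, against 12.4% and 11.1%. For MUT vs EV, 4 members had every MUT library above every EV library of its batch in all 3 batches: SCG2, TSPAN7, SYT4 and RAB39B. Of all genes 0.16% did so, and 0 members and 0.0847% of all genes lay below. Between MUT and WT 0 members lay above or below in all 3 batches, as 0.249% and 0.0894% of all genes did. For WT vs EV, RAB39B lay above and VAMP8 below in all 3 batches, as 0.103% and 0.249% of all genes did.

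The granins are acidic proteins that aggregate in the granule core, and VGF and SCG2 are also cut to peptides that are released with insulin. SCG2 (chromosome 2, 223596940 to 223602503, GRCh38) stood in batch 2 at 682, 643 and 673 CPM in MUT libraries, 666, 682 and 644 CPM in WT libraries and 349, 319 and 327 CPM in EV libraries. The batch 1 values were 214, 226, 216 and 222 CPM in MUT, 194, 179, 192 and 205 CPM in WT and 195, 212 and 202 CPM in EV libraries. In batch 3 it stood at 347, 355 and 342 CPM in MUT, 330, 333 and 335 CPM in WT and 329, 339 and 336 CPM in EV libraries. In batch 2 the MUT and WT libraries were 2.01-fold and 2.0-fold above EV, while in batches 1 and 3 the 3 media lay close together, with the MUT libraries on top. Over all batches SCG2 rose by 0.36 ± 0.11 (log2, SE) in MUT against EV (edgeR adjusted p = 0.0472), and the difference varied between batches (adjusted p = 1.65e-13). The call was lost in 18 of 29 fits that left out 1 library, among them each MUT library of batch 1 and each MUT and EV library of batch 2, with adjusted p-values up to 0.919 over all alternatives run. For MUT vs WT in batch 2 the log2 difference was 0.01 ± 0.04.

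CHGA and CHGB, the chromogranins, did not follow SCG2. CHGA averaged 7870 ± 334 CPM in MUT, 12400 ± 259 CPM in WT and 9550 ± 260 CPM in EV libraries of batch 2 (SD, n = 3 each). Its 3 WT libraries lay above and its 3 MUT libraries below every EV library of the batch, with log2 differences of -0.28 ± 0.04 in MUT against EV, -0.65 ± 0.04 in MUT against WT and 0.38 ± 0.04 in WT against EV (edgeR adjusted p = 1.7e-05, 1.44e-09 and 7.53e-07). CHGB averaged 715 ± 1.59 CPM in MUT, 787 ± 8.97 CPM in WT and 953 ± 26.2 CPM in EV libraries of batch 2, so both CEL media were below EV. VGF averaged 120 ± 7.58 CPM in MUT, 139 ± 8.1 CPM in WT and 88.3 ± 5.07 CPM in EV libraries of batch 2 (adjusted p = 6.96e-06 for MUT vs EV and 2.04e-07 for WT vs EV). SCG3, which binds CHGA and sorts it to granules, passed in WT vs EV of batch 2 with a log2 difference of 0.13 ± 0.04 (adjusted p = 0.0185) and not in MUT vs EV (0.06 ± 0.04). In batches 1 and 3 none of these 5 granins passed between any 2 media, and their log2 differences ran from -0.10 to 0.18.

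**Figure D4:**
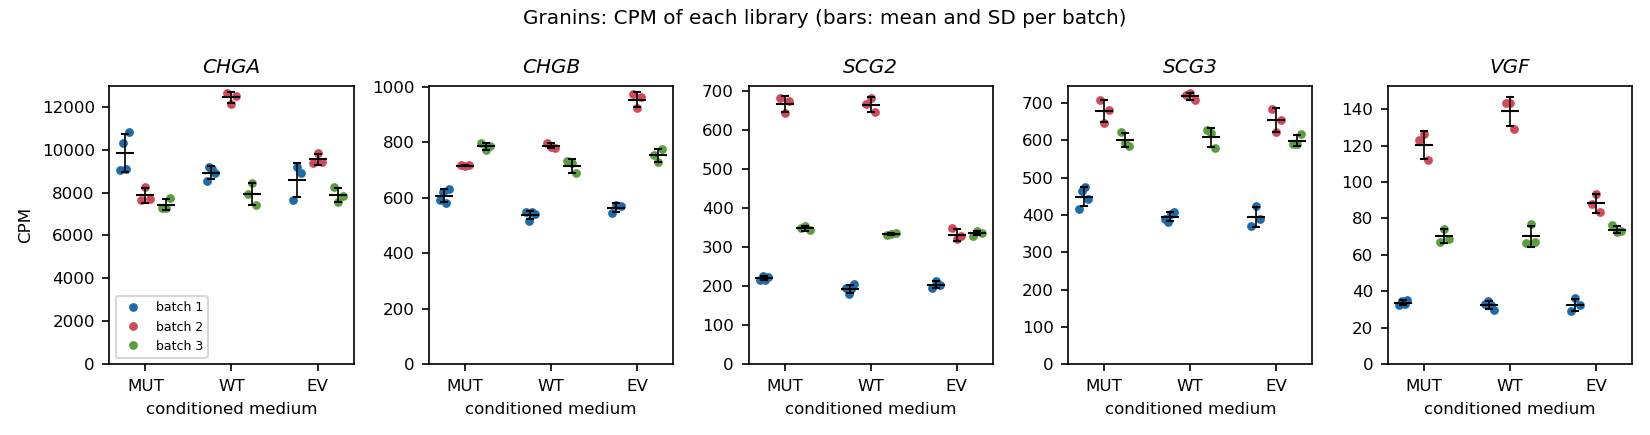
CPM of the 5 granins in each library (points), by medium and batch, with the mean and SD of each batch and medium as bars. In batch 2 SCG2 and VGF are higher in MUT and WT than in EV, CHGA is highest in WT at 12400 CPM and lowest in MUT at 7870 CPM, and CHGB is highest in EV at 953 CPM.

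CHGA and VGF are shown with their upstream sequence because both were higher in WT than in EV libraries of batch 2 and both hold the cAMP response element, a site known to control granin genes. The element TGACGTCA, on either strand, is in capitals in the 150 bases before the RefSeq start of each gene (GRCh38.p14), at chr14:92923000-92923149 on the plus strand and chr7:101165570-101165719 on the minus strand.
CHGA: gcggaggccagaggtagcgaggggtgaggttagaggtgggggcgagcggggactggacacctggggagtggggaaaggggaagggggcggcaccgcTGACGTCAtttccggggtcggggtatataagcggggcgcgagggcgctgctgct
VGF: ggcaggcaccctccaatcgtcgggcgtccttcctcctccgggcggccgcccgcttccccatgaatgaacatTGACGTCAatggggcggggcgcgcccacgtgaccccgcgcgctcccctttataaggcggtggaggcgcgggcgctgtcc
The element begins at position -54 from the start of CHGA and at -79 from that of VGF. RefSeq windows, from 250 bases before to 50 after a start, were held for 27 of the 40 genes, in 43 windows. The full element was in 2 of the 43, or 4.65%, against 1.85% of 35116 windows of all genes. Its shorter core TGACG, on either strand and counted also inside the full element, was in 48.8% of the 43, in 17 genes, against 24.6% of all windows. The E-box CAGATG was in 11.6% of the 43 against 14.7% of all. These matches describe the sequence only.

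The granule membrane genes moved with the batch 2 sets as well. PTPRN and PTPRN2, the IA-2 and IA-2β autoantigens of the granule membrane, were higher in WT than in EV libraries of batch 2 by 0.38 ± 0.05 and 0.46 ± 0.04 on the log2 scale (edgeR adjusted p = 3.9e-06 and 5.56e-08). PTPRN2 averaged 502 ± 20 CPM in MUT, 849 ± 14.8 CPM in WT and 615 ± 20.7 CPM in EV libraries of batch 2, the MUT libraries below and the WT libraries above every EV library. TSPAN7 (chromosome X, 38561370 to 38688920), a tetraspanin and islet autoantigen, stood at 329, 316 and 324 CPM in MUT, 312, 321 and 316 CPM in WT and 291, 273 and 286 CPM in EV libraries of batch 2. Batch 1 held 204, 223, 213 and 214 CPM in MUT, 191, 192, 197 and 195 CPM in WT and 200, 199 and 196 CPM in EV libraries. The batch 3 values were 324, 341 and 321 CPM in MUT, 275, 297 and 308 CPM in WT and 302, 299 and 296 CPM in EV libraries. The MUT libraries thus lay above the EV ones in every batch, by 0.09, 0.19 and 0.14 on the log2 scale in batches 1, 2 and 3, and the test of a difference between batches did not pass (adjusted p = 0.457). Over all batches TSPAN7 rose by 0.14 ± 0.03 in MUT against EV (adjusted p = 0.0196), and for MUT vs WT the log2 difference was 0.11 ± 0.03 (adjusted p = 0.0503). The call against EV was lost without MUT library 1, EV library 2 or EV library 3 of batch 2. It was lost as well in the settings that called 0 of the 40 members in MUT vs EV. These were the fits without batch 2, without a batch term, with a block for replicate number, with each set summed and with voom and correlated libraries.

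SV2A (chromosome 1, 149903318 to 149917882), a vesicle membrane glycoprotein, stood at 108, 112 and 107 CPM in MUT, 107, 110 and 106 CPM in WT and 68.2, 73.4 and 69.9 CPM in EV libraries of batch 2. In batch 1 it ran from 63.1 to 70.3 CPM in MUT, 60.2 to 65.6 CPM in WT and 59.3 to 63.9 CPM in EV libraries. In batch 3 it ran from 72.6 to 76.3, 65.2 to 74.1 and 66 to 71.6 CPM in MUT, WT and EV. The EV libraries of batch 2 were thus near the level of the other batches and the MUT and WT libraries of batch 2 stood apart from all others. SV2A rose by 0.27 ± 0.06 (log2) in MUT against EV over all batches (edgeR adjusted p = 0.0233), and the difference varied between batches (adjusted p = 2.12e-07).

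STMN2, a microtubule-binding protein of neurons that is also linked to granule traffic, was the 1 member that passed between MUT and WT over all batches. It stood at 315, 301 and 322 CPM in MUT, 223, 226 and 231 CPM in WT and 208, 193 and 207 CPM in EV libraries of batch 2. Its batch 1 levels were 197, 225, 209 and 202 CPM in MUT, 194, 191, 191 and 201 CPM in WT and 199, 205 and 189 CPM in EV libraries. Its batch 3 levels were 424, 433 and 430 CPM in MUT, 401, 390 and 408 CPM in WT and 410, 408 and 410 CPM in EV libraries. The MUT libraries overlapped the others in batch 1 and lay above all others of their batch in batches 2 and 3. Over all batches STMN2 rose by 0.22 ± 0.05 (log2) in MUT against WT (edgeR adjusted p = 0.0427) and by 0.25 ± 0.05 against EV (adjusted p = 0.023), and both differences varied between batches (adjusted p = 2.17e-05 and 7.18e-09). The call against WT was lost in 17 of 29 fits that left out 1 library, each of the 6 batch 2 libraries of these 2 media among them, with adjusted p-values up to 1 over all alternatives run, and the call against EV was lost in 6 of 29, each of the 6 batch 2 libraries of MUT and EV.

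**Figure D5:**
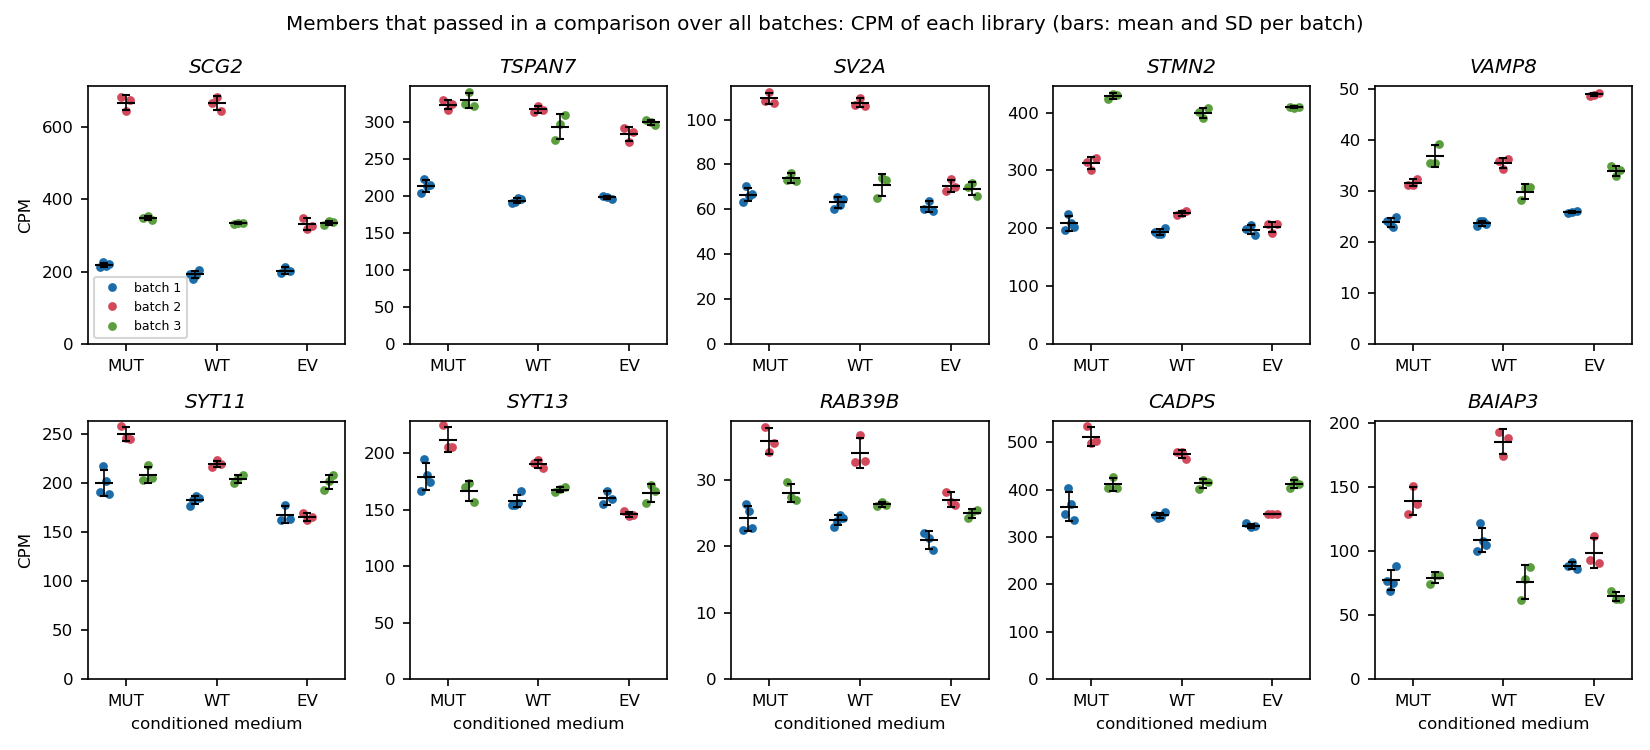
CPM of each library (points) for the 10 genes that passed in a comparison over all batches, by medium, with batches in colours and the mean and SD of each batch and medium as bars. The distance between the MUT and EV means is widest in batch 2 for each gene, and STMN2 is higher in batch 3, at 390 to 433 CPM, than in batches 1 and 2 in every medium.

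Of the SNAREs and their partners, VAMP8 alone passed over all batches. VAMP8 (chromosome 2, 85561562 to 85582031), a vesicle SNARE of endosomes and of newcomer granules, stood at 31.2, 31.2 and 32.4 CPM in MUT, 35.8, 34.4 and 36.4 CPM in WT and 48.7, 48.9 and 49.3 CPM in EV libraries of batch 2. In batch 1 it stood at 24.1, 23.6, 22.9 and 24.9 CPM in MUT, 23.1, 24.2, 24.1 and 23.6 CPM in WT and 25.7, 26 and 26.1 CPM in EV libraries. In batch 3 it stood at 35.6, 35.6 and 39.3 CPM in MUT, 28.2, 30.6 and 30.8 CPM in WT and 35, 33 and 34.1 CPM in EV libraries. The MUT libraries were thus lowest of the 3 media in batch 2 and highest in batch 3. VAMP8 fell by 0.21 ± 0.06 (log2) in MUT against EV over all batches (edgeR adjusted p = 0.0497), by 0.63 ± 0.04 in batch 2 alone (adjusted p = 5.17e-09), while in batch 3 alone the log2 difference was 0.12 ± 0.06 (adjusted p = 0.388). The call was lost in 20 of 29 fits that left out 1 library, MUT and EV libraries of batch 2 and libraries of each medium in batch 1 among them, with adjusted p-values up to 0.947 over all alternatives run. Against WT, VAMP8 in MUT fell by 0.16 ± 0.05 in batch 2 alone and rose by 0.30 ± 0.06 in batch 3 alone (adjusted p = 0.0111 and 0.0338). The batch 3 call was lost in 6 of 9 fits that left out 1 library (MUT 2 or 3, WT 2, EV 1, 2 or 3) and without robust estimation, with adjusted p-values up to 0.18 over the alternatives run. In WT against EV its level was lower in every batch, by -0.12, -0.47 and -0.18 on the log2 scale, with an adjusted p of 0.0655 over all batches.

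The target SNAREs SNAP25, STX1A and STX4 passed in WT vs EV of batch 2, by 0.11 ± 0.04, 0.20 ± 0.07 and 0.41 ± 0.06 (log2; edgeR adjusted p = 0.0491, 0.0492 and 2.69e-05). For MUT vs EV in batch 2 STX4, a plasma membrane syntaxin of granule fusion, rose by 0.31 ± 0.06 (adjusted p = 3.18e-04), and SNAP25 and STX1A did not pass, with log2 differences of -0.02 ± 0.04 and 0.18 ± 0.07. VAMP2, the main vesicle SNARE of insulin granules, passed in no comparison of media, and its log2 differences within a batch ran from -0.13 to 0.09. VAMP3, a vesicle SNARE of recycling endosomes, fell in both CEL media of batch 2, by 0.29 ± 0.04 in MUT and 0.22 ± 0.04 in WT against EV (adjusted p = 7.2e-06 and 2.37e-04).

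The 2 complexins went apart in batch 2. CPLX1 averaged 46.5 ± 2.33 CPM in MUT, 40.8 ± 0.508 CPM in WT and 22.1 ± 0.442 CPM in EV libraries of batch 2 (SD, n = 3 each), a log2 difference of 1.07 ± 0.05 in MUT and 0.88 ± 0.05 in WT against EV (edgeR adjusted p = 2.99e-11 and 5.0e-10). In batches 1 and 3 its means lay between 29.8 and 34.3 CPM in all 3 media, so that in batch 2 the EV libraries were below and the other libraries above that level. CPLX2, the higher of the 2 per kilobase, stood at 120, 125 and 117 CPM in MUT, 156, 156 and 160 CPM in WT and 138, 142 and 143 CPM in EV libraries of batch 2. In batch 1 it ran from 134 to 155 CPM in MUT, 137 to 148 CPM in WT and 142 to 145 CPM in EV libraries. In batch 3 it ran from 141 to 143, 142 to 150 and 130 to 138 CPM in MUT, WT and EV. Over all batches the log2 difference of CPLX2 for MUT vs WT was -0.12 ± 0.04 (adjusted p = 0.162). The ATPase NSF, which takes spent SNARE complexes apart, passed in no comparison of media, and its adaptor NAPA fell by 0.21 ± 0.04 in MUT against EV in batch 2 (adjusted p = 4.36e-04).

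The 5 synaptotagmins passed as higher in WT than in EV libraries of batch 2, by 0.27 to 0.69 on the log2 scale. Against EV, 4 of the 5 passed as higher in MUT. Of all genes in that batch, 19.6% were higher in WT and 24.1% in MUT against EV. SYT11 (chromosome 1, 155859509 to 155885199), a synaptotagmin that does not bind calcium, stood at 259, 246 and 246 CPM in MUT, 217, 224 and 219 CPM in WT and 169, 162 and 165 CPM in EV libraries of batch 2. The batch 1 values were 192, 218, 202 and 189 CPM in MUT, 177, 183, 187 and 185 CPM in WT and 162, 178 and 163 CPM in EV libraries. Batch 3 held 203, 218 and 205 CPM in MUT, 200, 206 and 208 CPM in WT and 193, 202 and 208 CPM in EV libraries. MUT lay above EV in batches 1 and 2 without overlap, and the media overlapped in batch 3. SYT11 rose by 0.30 ± 0.05 (log2) in MUT against EV over all batches (edgeR adjusted p = 0.00819), and no fit that left out 1 library lost the call. The call was lost without batch 2, with only the 2 media compared, without a batch term and with a block for replicate number. It was also lost with each set summed and with voom and correlated libraries, with adjusted p-values up to 0.919 over all alternatives run. For MUT vs EV it is the 1 member that passed in 2 batches fitted alone, by 0.23 ± 0.05 in batch 1 (adjusted p = 0.0462) and 0.60 ± 0.04 in batch 2 (adjusted p = 9.77e-10), while in batch 3 the log2 difference was 0.05 ± 0.05. The batch 1 call was lost in 7 of 11 fits that left out 1 library (MUT 2 or 3, WT 1, 3 or 4, EV 2 or 4). It was also lost with a block for replicate number and without robust estimation, with adjusted p-values up to 0.276 over the alternatives run. DESeq2 called 9 members in that batch.

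SYT13 (chromosome 11, 45240301 to 45286319), another synaptotagmin without calcium binding, stood at 225, 206 and 205 CPM in MUT, 191, 194 and 187 CPM in WT and 149, 144 and 145 CPM in EV libraries of batch 2. Batch 1 held 166, 195, 181 and 175 CPM in MUT, 154, 155, 156 and 166 CPM in WT and 155, 167 and 159 CPM in EV libraries. The batch 3 values were 170, 173 and 157 CPM in MUT, 165, 168 and 170 CPM in WT and 156, 172 and 166 CPM in EV libraries. The media thus separated in batch 2 and overlapped in batches 1 and 3 between MUT and EV. SYT13 rose by 0.24 ± 0.05 (log2) over all batches (edgeR adjusted p = 0.0244). SYT5, a calcium sensor, averaged 36.3 ± 2.71 CPM in MUT, 37 ± 0.884 CPM in WT and 23 ± 0.677 CPM in EV libraries of batch 2, and SYT4 averaged 87.6 ± 4.79, 94.3 ± 4.14 and 67.8 ± 4.52 CPM in MUT, WT and EV. SYT4 lay higher in MUT than in EV libraries in each batch without overlap, with an adjusted p of 0.0545 over all batches. SYT7 passed in WT vs EV of batch 2 by 0.27 ± 0.04 (adjusted p = 3.53e-05) and not in MUT vs EV (0.05 ± 0.04).

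Of the RAB proteins, RAB39B passed in both comparisons with EV over all batches. RAB39B (chromosome X, 155258241 to 155264589), a GTPase of vesicle traffic in neurons, stood at 38, 34.2 and 35.6 CPM in MUT, 32.7, 36.8 and 32.9 CPM in WT and 28.3, 26.8 and 26.2 CPM in EV libraries of batch 2. Its batch 1 levels were 22.5, 26.3, 25.3 and 22.8 CPM in MUT, 22.9, 23.9, 24.8 and 24.3 CPM in WT and 22.1, 21.3 and 19.5 CPM in EV libraries. Its batch 3 levels were 29.6, 27.4 and 27.1 CPM in MUT, 26.1, 26.8 and 26.3 CPM in WT and 24.3, 25.1 and 25.5 CPM in EV libraries. In every batch all MUT and all WT libraries lay above all EV libraries. The rise was 0.26 ± 0.04 (log2) for MUT vs EV (edgeR adjusted p = 0.00819) and 0.20 ± 0.04 for WT vs EV (adjusted p = 0.0245), with within-batch values of 0.19, 0.41 and 0.17 and of 0.20, 0.33 and 0.08 in batches 1, 2 and 3. The tests of a difference between batches did not pass (adjusted p = 0.0514 and 0.0874), and no fit that left out 1 library lost the MUT call. That call was lost without batch 2, without a batch term and with a block for replicate number. It was also lost with each set summed and with voom and correlated libraries, with adjusted p-values up to 0.919 over all alternatives run. The WT call was lost without WT library 2 of batch 2, EV library 4 of batch 1 or EV libraries 1, 2 or 3 of batch 2. It was lost as well in the settings that called 0 of the 40 members in WT vs EV. These were the fits without batch 2, without a batch term, with each set summed and with voom and correlated libraries.

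RAB3A, the RAB GTPase of synaptic vesicles and insulin granules, stood at 11.8, 13.2 and 13.6 CPM in MUT, 13.5, 13.2 and 13.1 CPM in WT and 10.1, 11.5 and 11.5 CPM in EV libraries of batch 2. Over all batches its median was 11.2 CPM in MUT, 10.3 CPM in WT and 10.1 CPM in EV libraries, and the log2 difference for MUT vs EV was 0.14 ± 0.06 (edgeR adjusted p = 0.125). RAB3B, RAB3D and RAB27A, which carry and tether granules, passed in no comparison of media. RAB37 fell by 0.49 ± 0.09 (log2) in MUT against EV and by 0.59 ± 0.09 against WT in batch 2 (adjusted p = 1.56e-04 and 5.07e-05), and the effector RPH3AL, or Noc2, fell by 0.20 ± 0.08 and 0.25 ± 0.08 (adjusted p = 0.0476 and 0.0225). In WT vs EV of batch 2 the RAB group had 2 of 7 higher, or 28.6%, against 19.6% of all genes.

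Of the priming and active zone genes, CADPS passed for MUT vs EV and BAIAP3 for WT vs EV over all batches. CADPS (chromosome 3, 62398346 to 62875389) stood at 535, 499 and 503 CPM in MUT, 479, 480 and 465 CPM in WT and 349, 349 and 349 CPM in EV libraries of batch 2. In batch 1 it stood at 348, 404, 370 and 335 CPM in MUT, 347, 340, 343 and 353 CPM in WT and 329, 321 and 323 CPM in EV libraries. Batch 3 held 404, 427 and 403 CPM in MUT, 402, 420 and 417 CPM in WT and 404, 420 and 411 CPM in EV libraries. MUT lay above EV in batches 1 and 2, while in batch 3 the 3 media overlapped. CADPS rose by 0.24 ± 0.05 (log2) in MUT against EV (edgeR adjusted p = 0.0233), and SV2A, STMN2, SYT13 and CADPS each lost the call in the 6 fits that left out 1 MUT or EV library of batch 2, with adjusted p-values up to 0.919 over all alternatives run.

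BAIAP3 (chromosome 16, 1333601 to 1349441), an UNC13-related protein of dense-core vesicle traffic, stood at 129, 151 and 136 CPM in MUT, 193, 174 and 189 CPM in WT and 92.7, 112 and 90.8 CPM in EV libraries of batch 2. The batch 1 values were 76.7, 69.1, 74.8 and 88 CPM in MUT, 99.8, 122, 108 and 105 CPM in WT and 88.7, 91.2 and 85.7 CPM in EV libraries. The batch 3 values were 74.4, 81.7 and 81.6 CPM in MUT, 61.5, 78.3 and 87.4 CPM in WT and 68.8, 62.3 and 62.7 CPM in EV libraries. WT lay above EV in batches 1 and 2, and 1 of 3 WT libraries fell below EV in batch 3. BAIAP3 rose by 0.48 ± 0.09 (log2) in WT against EV over all batches (edgeR adjusted p = 0.0206), a call lost without WT library 1 or EV library 1, 2 or 3 of batch 2, and the difference varied between batches (adjusted p = 0.00136). The fits without batch 2, without a batch term, with each set summed and with voom and correlated libraries called 0 members in WT vs EV, so they lost this call too. Against WT, BAIAP3 in MUT fell by 0.51 ± 0.07 in batch 1 alone and by 0.41 ± 0.09 in batch 2 alone (adjusted p = 0.0384 and 0.00638), while in batch 3 the log2 difference was 0.06 ± 0.11. The batch 1 call was lost in 8 of 11 fits that left out 1 library (MUT 1, 2 or 3, WT 1, 2 or 3, EV 2 or 4). It was also lost with a block for replicate number and without robust estimation, with adjusted p-values up to 0.0737 over the alternatives run.

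UNC13A and UNC13B, which open syntaxin for SNARE pairing, and RIMBP2, which links calcium channels to release sites, rose in both CEL media of batch 2. UNC13A averaged 248 ± 20.9 CPM in MUT, 232 ± 10 CPM in WT and 153 ± 8.56 CPM in EV libraries of that batch, against 215 to 266 CPM as means of the 3 media in batches 1 and 3, so the EV libraries of batch 2 were the low ones. UNC13B averaged 300 ± 10.2, 315 ± 2.79 and 249 ± 8.76 CPM and RIMBP2 averaged 287 ± 3.98, 284 ± 6.41 and 219 ± 11.1 CPM in MUT, WT and EV libraries of batch 2. RIMS2, an active zone protein that binds RAB3, fell by 0.20 ± 0.05 (log2) in MUT against EV in batch 2 (edgeR adjusted p = 0.00377). ERC1, a scaffold of docking sites, passed in both CEL media of batch 2, by 0.15 ± 0.06 in MUT and 0.25 ± 0.06 in WT against EV (adjusted p = 0.038 and 0.00183), and PCLO in no comparison of media.

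Summed over the 40 genes, the level in batch 2 was 16700 ± 372 CPM in MUT, 22000 ± 296 CPM in WT and 17500 ± 339 CPM in EV libraries (SD, n = 3 each). CHGA makes up much of this sum, and without it the sums were 8840 ± 121, 9580 ± 49.6 and 7930 ± 80.8 CPM. In the other batches the sums without CHGA ran from 7010 CPM in WT libraries of batch 1 to 8330 CPM in MUT libraries of batch 3.

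The members also differed between batches, though not alike in every medium. In a model with medium, 33 of the 40 passed between batch 1 and batch 2, 7 higher and 26 lower in batch 1, where 66.7% of all genes passed (33% higher, 33.7% lower). Between batch 1 and batch 3, 28 passed, 10 higher and 18 lower in batch 1, where 56.6% of all genes passed (26.7% higher, 29.9% lower). Between batch 2 and batch 3, 25 passed, 20 higher and 5 lower in batch 2, where 44.5% of all genes passed (22.3% higher, 22.2% lower). These tests took the media together, so a call need not hold in each medium. SCG2 and SV2A passed between batches 2 and 3, yet SCG2 in EV libraries ran from 319 to 349 and from 329 to 339 CPM there. In the same EV libraries SV2A ran from 68.2 to 73.4 and from 66 to 71.6 CPM, while VGF ran from 83.4 to 93.5 and from 72.3 to 76.1 CPM. The granins and granule membrane genes were low in batch 1, with 9 of 10 lower than in batch 2 and 8 of 10 lower than in batch 3. The mean mitochondrial share of counts lay between 6.2% and 7.69% in the media of batch 1, 4.01% and 5.07% in batch 2 and 4.19% and 4.76% in batch 3, and its part in the batch differences was not tested. VGF averaged 33 ± 2.23, 116 ± 22.9 and 71.3 ± 4.12 CPM in batches 1, 2 and 3 (SD over 11, 9 and 9 libraries), and SCG2 averaged 205 ± 14.4, 554 ± 167 and 339 ± 8.28 CPM. STMN2 averaged 200 ± 10.4, 247 ± 50.7 and 413 ± 13.7 CPM, a log2 difference of -1.05 ± 0.05 between batch 1 and batch 3 (edgeR adjusted p = 1.57e-16). SYT7 ran the other way, with 278 ± 10.9, 243 ± 22.8 and 194 ± 7.61 CPM in batches 1, 2 and 3. The batches are the labels' own and nothing says how they differed.

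Of 94 other genes of the pathway (further SNAREs and their regulators, calcium sensors, RAB proteins, active zone and exocyst proteins and granule membrane proteins), 5 rose and 2 fell in MUT against EV over all batches, or 7.45% against 5.2% of all genes. PPFIA4, a liprin scaffold, fell by 0.40 ± 0.10 (log2), PAM, which amidates granule peptides, rose by 0.21 ± 0.05, ATP6AP2, an accessory protein of the proton pump, by 0.15 ± 0.04, and RAB10 by 0.11 ± 0.03 (edgeR adjusted p = 0.027, 0.0305, 0.0393 and 0.0405). For MUT vs WT 1 fell, the calcium sensor SCGN, by 0.24 ± 0.06 (adjusted p = 0.0327), and for WT vs EV 1 rose, the vesicle protein SYNGR1, by 0.23 ± 0.05 (adjusted p = 0.0331). Each is 1.06% of the 94, against 0.884% and 0.315% of all genes. None of the 9 exocyst genes passed in these 3 comparisons. In batch 2 alone 34 of the 94 were higher and 12 lower in WT than in EV libraries, so the other pathway genes had a higher share of 36.2%, between the 67.5% of the members and the 19.6% of all genes.

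The main cargo of the granule moved in batch 2 as CHGB did, against SCG2 and VGF. INS in batch 2 fell by 0.44 ± 0.05 (log2) in MUT and by 0.49 ± 0.05 in WT against EV (edgeR adjusted p = 8.92e-07 and 4.08e-07), and over all batches the adjusted p was 0.944 and 0.538. In batch 3 INS went the other way in MUT, at 16100, 19500 and 19400 CPM against 13400, 13300 and 12300 CPM in EV libraries. The WT libraries of batch 3, at 11500, 14100 and 18200 CPM, overlapped both, and in batch 1 the 3 media overlapped. IAPP, the amyloid peptide stored with insulin, rose by 0.88 ± 0.05 in WT against EV in batch 2 (adjusted p = 1e-09), and the convertase PCSK2 by 0.25 ± 0.04 in MUT and in WT (adjusted p = 1.72e-05 and 3.45e-05).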

How the data were processed

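RNA-seq was analysed in 29 libraries of EndoC-βH1 cells. The authors deposited estimated counts per gene, made with fastp and kallisto per the submitters' processing notes. No source used here gives their versions, annotation or genome build. The counts were rounded to whole numbers. Groups came from the labels. Genes were filtered with filterByExpr, scaled by TMM and tested with edgeR 4.0.16 (R 4.3.3, limma 3.58.1), quasi-likelihood with robust estimation, with terms for batch and medium across the 29 libraries, and in each batch alone. An F test asked whether a difference varied between batches. P-values were adjusted by Benjamini-Hochberg over all genes, with 0.05 as threshold. DESeq2 1.42.0 and the other alternatives are given at the end. Code was tested on simulated data. CPM values are scaled by TMM, and levels per kb use the longest GENCODE 29 basic coding transcript. Entries without a gene symbol held 2.69% of counts. Deviations of same-numbered libraries had correlations from -0.058 to 0.089, though 16 of 29 libraries correlated best with their own number. The labels state no pairing, so the main fits did not use the numbers to pair libraries. The members and gene lists were chosen with earlier results of these data known. Values by library are given for genes that passed over all batches and for the 2 members of each sub-group with the smallest such p over the 3 comparisons; any member may be named. Gene coordinates are from GENCODE 29 (GRCh38).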

Additional observations from a re-analysis of the deposited data

Results flagged for a closer look

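For 7 of the 9 members called in MUT vs EV over all batches the size of the difference varied between batches, by the F test across batches: CADPS (adjusted p = 2.24e-07), SCG2 (1.65e-13), STMN2 (7.18e-09), SV2A (2.12e-07), SYT11 (5.66e-07), SYT13 (2.44e-06) and VAMP8 (1.2e-09). The same test passed for STMN2 in MUT vs WT (adjusted p = 2.17e-05) and for BAIAP3 in WT vs EV (adjusted p = 0.00136). In all, 26 members passed it in MUT vs EV, where 44% of all genes did. In MUT vs WT 15 passed, where 28.4% of all genes did, and in WT vs EV 24, where 24.1% did.

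In 1 of 200 groups of 4 to 10 libraries, tested on rounded values, 1 library was flagged, for SYT13 in WT libraries of batch 1. SYT13 had 166 CPM in its highest library and 156 CPM in the next, a gap of 0.833 of the range against a critical value of 0.829. Before rounding the values were 153.7542, 154.6159, 156.3973 and 166.1524 CPM. Their gap is below the critical value, so the flag came from the rounding. Chance gives a gap above the critical value in about 1 of 20 groups.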

How the results depend on the processing

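No called difference changed direction under any alternative run. Shares of all genes are not given for the alternatives, so these counts describe the members only. Over all batches 9 members were called in MUT vs EV, 1 in MUT vs WT and 2 in WT vs EV, the order of all counts here. They numbered 0, 0 and 0 without a batch term (6, 2 and 3 at an unadjusted p under 0.05), with libraries summed (6, 0 and 2), and with voom and correlated libraries (12, 6 and 12). Only the 2 media compared gave 2, 3 and 6. Leaving out batch 2 gave 0, 3 and 0 (16, 14 and 7), and leaving out batch 3 gave 14, 2 and 7. Without batch 1 the counts were 9, 1 and 1. The 1 member of MUT vs WT was lower in MUT there, so it was not STMN2. Total library size gave 0 for MUT vs WT, no filter 0 for MUT vs WT, with 1 in WT vs EV, no robust estimation (chosen after seeing the data) 2 for MUT vs WT, and DESeq2 3 for MUT vs WT, with 5 in WT vs EV. In batch 1 alone DESeq2 gave 9, 7 and 1, and no robust estimation 0 in both MUT comparisons. In batch 3 alone MUT vs WT had 3 with no filter, 0 with no robust estimation and 5 with DESeq2. The causes were not tested.

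With batch and the replicate block, the counts were 0, 0 and 1 (14, 8 and 13 at an unadjusted p under 0.05), and in batch 1 alone the block gave 0 for MUT vs EV and MUT vs WT (17 and 14). The 28 same-numbered pairs had correlations from -0.058 to 0.089, and 16 of 29 libraries correlated best with their own number.

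Leaving out 1 library gave 2 to 10, 0 to 2 and 0 to 4 over all batches, 0 to 9, 0 to 7 and 0 to 0 in batch 1, 27 to 29, 14 to 19 and 27 to 30 in batch 2, and 0 to 4, 0 to 4 and 0 to 1 in batch 3. MUT library 4 of batch 1 gave the 9 and 7.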
